A study of Homo sapiens with 16 samples.

Results

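The comparison of HPLM/B27 with RPMI/B27 at Day 30 took 8 of the 16 RNA-seq libraries of the series, 4 from each medium, and 15780 of the 43388 genes in the expression table, those with a mean of at least 1 TPM (transcripts per 1000000, a level per unit of transcript length) over the 8 libraries. All cells were wild-type cardiomyocytes (hPSC-CMs) made from WTC11, an induced pluripotent stem cell line of human origin, by activating and then blocking Wnt signaling, with a frozen cardiac progenitor stage on the way. Both groups were grown in RPMI/B27 until Day 16 and then for 2 weeks in their own medium. RPMI/B27 is the basal medium RPMI with the supplement B27 and holds 11.1 mM glucose, whereas HPLM/B27 is human plasma-like medium with the same supplement and 5 mM glucose, plus plasma metabolites, salts at plasma levels and more calcium. The medium as a whole was changed, so the comparison covers glucose and every other component together. Of the remaining libraries, 4 came from Day 30 RPMI_glcM/B27, which is RPMI/B27 with glucose set to 5 mM, and 4 from RPMI/B27 cells at Day 16, and these are given beside the results where they bear on them. The libraries are replicate wells of a single differentiation of 1 cell line, so the p-values measure the spread between wells and not between differentiations or lines and no sorting of the cultures is described. The labels give 4 wells a medium and the design text 3.

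A heart muscle cell before birth burns mostly glucose and lactate and uses slow skeletal troponin I, and after birth it turns toward fatty acids, builds more mitochondria and replaces that troponin with the cardiac form. Cells sense glucose inside them in part through MondoA and ChREBP, transcription factors that pair with MLX and bind carbohydrate response elements when glucose 6-phosphate is plentiful. Their best-known targets, TXNIP and ARRDC4, encode arrestin-like proteins that pull glucose transporters off the cell surface. Calcium that enters the cell through L-type channels triggers release from the sarcoplasmic reticulum, drives contraction and, through calcineurin, changes transcription.

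The sequences shown are the 250 bases upstream of the starts of TXNIP and ARRDC4, the 2 tested genes that fell the most among the glucose-sensing targets, taken from the RefSeq promoter table on GRCh38.p14. Capitals mark, for TXNIP, a pair of CACGNG motifs 5 bases apart, the layout of a carbohydrate response element, together with the spacer between them, and, for ARRDC4, a single CACGTG.
TXNIP, chr1:145996580-145996829, minus strand: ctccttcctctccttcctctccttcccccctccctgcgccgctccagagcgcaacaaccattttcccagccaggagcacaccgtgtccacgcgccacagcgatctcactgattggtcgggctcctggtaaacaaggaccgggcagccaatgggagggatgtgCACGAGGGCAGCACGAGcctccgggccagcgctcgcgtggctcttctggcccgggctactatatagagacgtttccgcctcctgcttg
ARRDC4, chr15:97960453-97960702, plus strand: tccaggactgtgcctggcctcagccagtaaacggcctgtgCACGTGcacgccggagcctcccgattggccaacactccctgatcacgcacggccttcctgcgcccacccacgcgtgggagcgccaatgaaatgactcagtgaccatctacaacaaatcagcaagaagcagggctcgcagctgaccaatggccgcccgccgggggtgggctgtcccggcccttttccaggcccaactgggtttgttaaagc
In TXNIP the pair began 88 bases before the start, and in ARRDC4 the single motif began 210 bases before it. Searched on both strands, the pair was found in 16 of 27305 windows (0.0586%), and in 11 of the 10661 windows of tested genes (0.103%). TXNIP was the 1 gene of those 11 that passed the test, beside 13.3% of all genes tested. The others lay between -0.20 (MYL5) and 0.30 (ATP5ME) on the log2 scale. CACGTG alone was in 1772 windows (6.49%), 8.24% of the windows of tested genes. Among the other glucose-sensing targets and partners, CACGTG was also in the windows of BHLHE40 and MLX, which did not pass, and of PKLR, which was not tested. The ARRDC3 window held neither motif, and the matches are letters in a window and no measurement of binding.

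Read totals recovered from the table ran from 9903935 to 12807127 in the HPLM/B27 libraries and from 9655892 to 16183655 in the RPMI/B27 libraries. One mitochondrial RNA, RNR2, took between 41.0% and 48.3% of TPM and RN7SK between 10.7% and 13.8% in the Day 30 libraries, so each library was divided by a median-of-ratios factor (0.719 to 1.30), and levels are given below as scaled TPM. RNR1, the other mitochondrial ribosomal RNA, ran unevenly within both groups, with 6359, 138, 203 and 5889 TPM in HPLM/B27 and 1545, 619, 14387 and 29276 TPM in RPMI/B27. RPMI/B27 replicate 3 stood apart from its group, with 8577 scaled TPM of TNNT2 against 2586 to 5440 in the other 3, 565 of ACTA2 against 81.7 to 96.2 and 165 of TAGLN against 20.4 to 27.1. Counts that moved without it are given beside the results. The cultures were cardiomyocyte by their defining markers in both media: TNNT2, cardiac troponin T, ran from 3244 to 4767 scaled TPM in HPLM/B27 and from 2586 to 8577 in RPMI/B27, and NKX2-5, a cardiac transcription factor, from 43.6 to 54.6 and from 43.2 to 58.9. As these are bulk samples, fewer cells of a type and less RNA per cell cannot be told apart.

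In HPLM/B27, 2106 of the 15780 genes passed an adjusted p of 0.05 (limma on log2(scaled TPM + 1), Benjamini-Hochberg adjustment), which is 13.3% of those tested. Of these, 1144 were higher (7.25%) and 962 lower (6.10%). Without RPMI/B27 replicate 3 the counts were 1368 and 1179. The changes were mostly small, with medians of 0.49 and -0.48 on the log2 scale among the called genes, and 91 genes rose and 74 fell by at least 2-fold. Genes called without any overlap between the groups numbered 1816, or 11.5% of those tested. The call depended on the scaling: on the unscaled TPM 244 genes passed higher and 149 lower, and with the mitochondrial and ribosomal RNAs and RN7SK taken out 807 and 409, so that the share of higher genes among those called went from 54.3% to 66.4%.

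**Figure D1:**
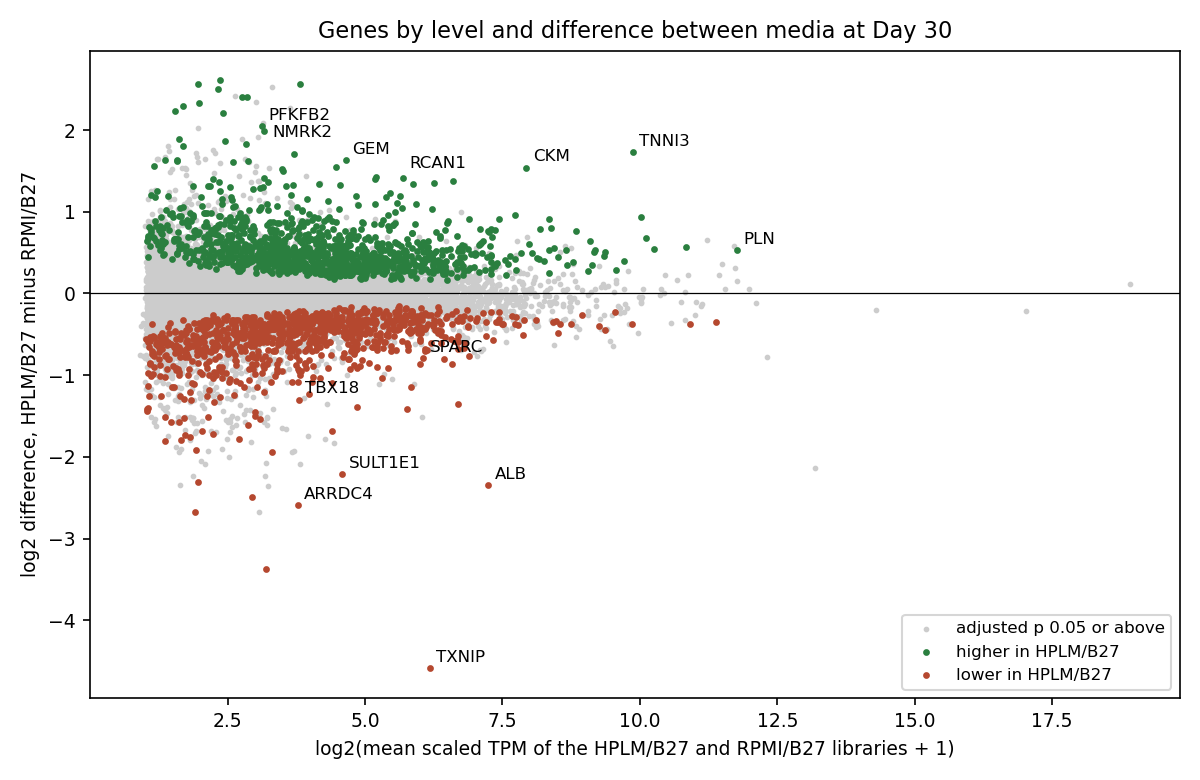
Each point is 1 of the 15780 genes, with its mean level over the 8 libraries on the x axis as log2(scaled TPM + 1) and its log2 difference between HPLM/B27 and RPMI/B27 on the y axis. Green points (1144) were higher and red points (962) lower at an adjusted p of 0.05, and TXNIP stands lowest at -4.59.

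The glucose-sensing targets that passed all fell. TXNIP (chr1:145992435-145996579) gave 6.91, 2.70, 2.71 and 6.87 scaled TPM in the HPLM/B27 libraries and 139, 208, 73.2 and 133 in the RPMI/B27 libraries. Every HPLM/B27 library lay far below every RPMI/B27 library, with a log2 difference of -4.59 ± 0.33 (SE, n = 4 each; limma adjusted p = 1.84e-06), the largest fall of the leading genes and 24.1-fold on the scale with the pseudocount. The 2 HPLM/B27 libraries with more TXNIP were the 2 with more RNR1, and the difference was -3.82 among the 5 libraries with over 1000 TPM of RNR1 and -5.82 among the other 3. The part of RNR1 in that gap between wells was not tested.

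ARRDC4 (chr15:97960703-97973833), which acts much like TXNIP, measured 2.67, 2.28, 2.48 and 4.17 scaled TPM in HPLM/B27 and 24.2, 28.2, 16.3 and 21.1 in RPMI/B27. These groups did not overlap either (log2 difference -2.59 ± 0.20, adjusted p = 2.33e-06). ARRDC3, a relative that also restrains glucose uptake, was at 9.50, 13.7, 9.45 and 10.9 against 23.5, 27.6, 20.4 and 21.3 (-1.03 ± 0.13, adjusted p = 0.000161). KLF10, a repressor induced by glucose, ran from 3.52 to 5.24 in HPLM/B27 and from 7.98 to 9.68 in RPMI/B27, and its log2 difference was -0.92. Of the 13 listed targets and partners 9 were tested, with 4 lower and 0 higher and a median of -0.12, beside -0.01 over all genes tested. The other 5 tested members did not pass. These were the partners MLXIP (-0.05) and MLX (0.31) and the targets TKFC (-0.03), HBP1 (-0.12) and BHLHE40 (0.91, adjusted p = 0.0975). BHLHE40 ran the other way, at 33.3 to 57.7 scaled TPM in HPLM/B27 and 15.5 to 29.1 in RPMI/B27.

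**Figure D2:**
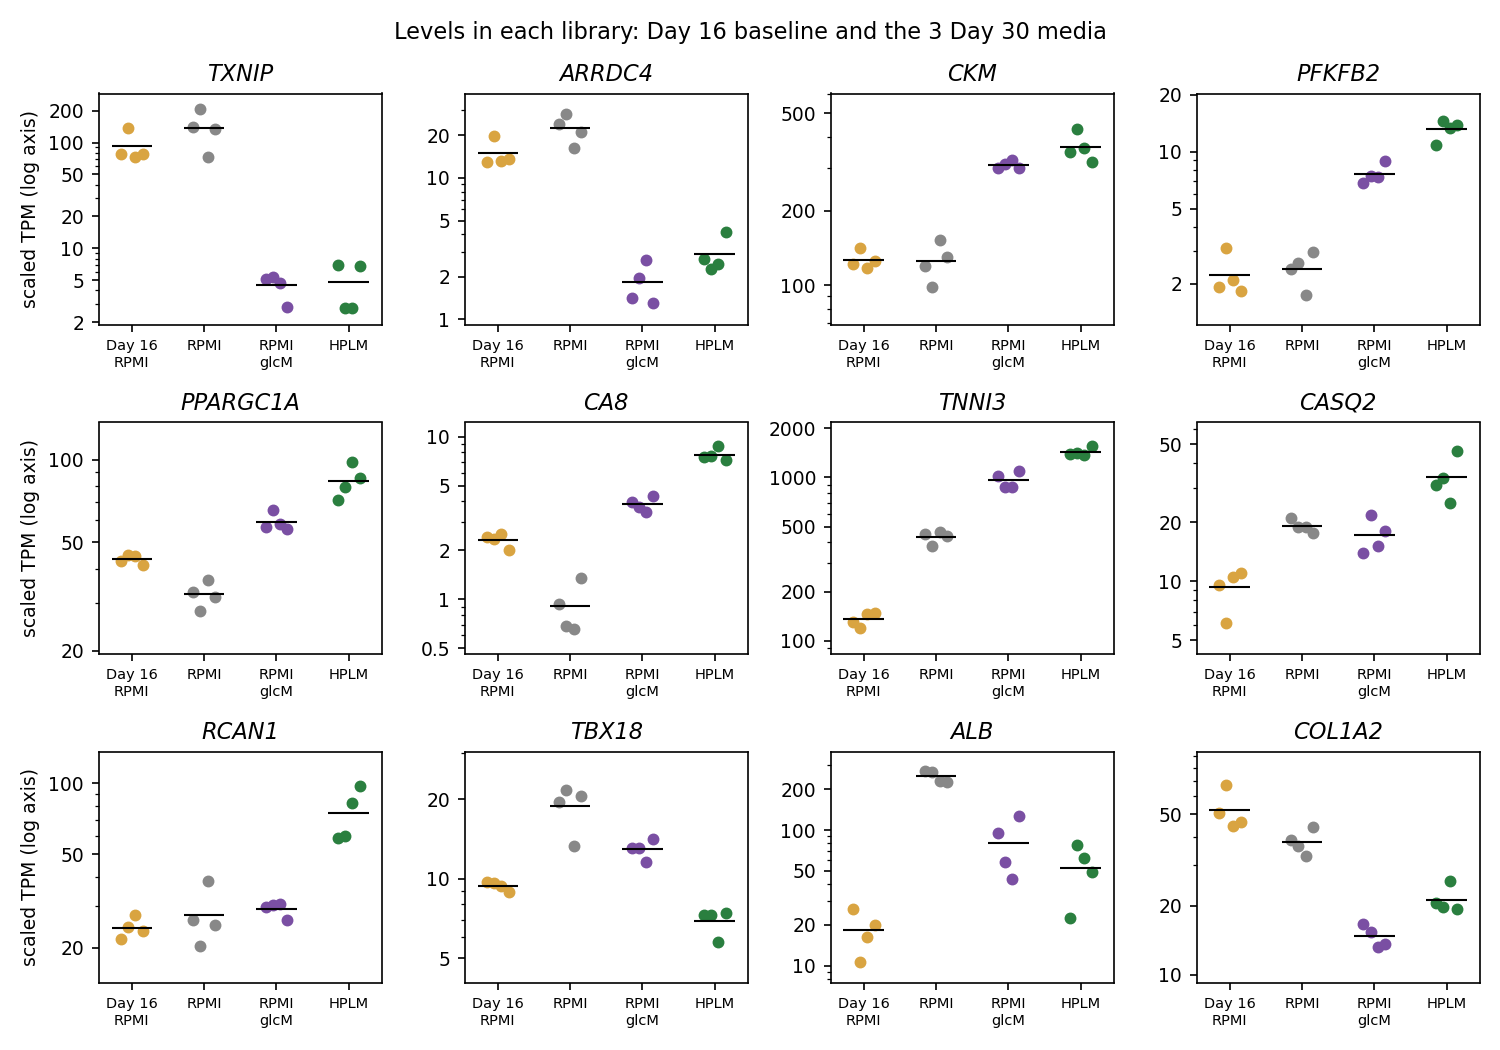
Scaled TPM of 12 genes in every library on log axes, with a point per library and a bar at the mean of 4, for Day 16 RPMI/B27 and the 3 Day 30 media. TXNIP, ARRDC4, TBX18, ALB and COL1A2 sit lower in HPLM than in RPMI and the other 7 higher, with no overlap between those groups in any panel. For TXNIP, ARRDC4, PFKFB2, TNNI3 and ALB the lack of overlap follows from the choice of the leading genes. CA8 passed the filter of 1 TPM through HPLM/B27, so its panel is a description.

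Glycolytic enzymes rose almost as a body. Of 19 tested, 15 were higher in HPLM/B27 and none lower, with a median log2 difference of 0.53. LDHA, which turns pyruvate into lactate, read 518, 570, 594 and 605 scaled TPM in HPLM/B27 and 328, 312, 338 and 371 in RPMI/B27. The lowest HPLM/B27 well exceeded the highest RPMI/B27 well (0.76 ± 0.08, adjusted p = 2.73e-05). ENO3, the muscle enolase, gave 203, 220, 180 and 177 against 119, 109, 127 and 123 (0.69 ± 0.07, adjusted p = 2.89e-05), and PKM, pyruvate kinase, 430, 423, 396 and 397 against 292, 257, 285 and 282 (0.56 ± 0.06, adjusted p = 4.51e-05). HK2, the insulin-responsive hexokinase of muscle, ran from 53.2 to 78.7 in HPLM/B27 and from 21.3 to 31.6 in RPMI/B27. ENO2, an enolase best known from neurons, ran from 130 to 151 and from 30.1 to 73.9. GAPDH was among the 4 members that did not pass, at 3413 to 4514 against 2268 to 3388. On the unscaled TPM 6 of the 19 passed.

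Transporters and the switches around glycolysis moved with it, with 13 of 19 tested higher, 0 lower and a median of 0.51. The glucose transporters SLC2A1, SLC2A3, SLC2A4 and SLC2A12 all passed. SLC2A4, the insulin-regulated GLUT4, lay between 24.3 and 37.6 scaled TPM in HPLM/B27 and between 7.71 and 15.3 in RPMI/B27, and SLC2A1, GLUT1, between 55.1 and 86.5 and between 25.6 and 39.5. PFKFB2 (chr1:207034416-207081027), the heart enzyme that makes and removes fructose 2,6-bisphosphate, the activator of phosphofructokinase, had the largest rise of the set. Its levels were 10.8, 14.5, 13.4 and 13.8 in HPLM/B27 and 2.39, 2.59, 1.74 and 2.94 in RPMI/B27, a non-overlapping log2 difference of 2.05 ± 0.14 (adjusted p = 1.03e-06). MPC1, a subunit of the mitochondrial pyruvate carrier, read 43.7, 53.8, 62.4 and 55.1 against 28.5, 28.3, 33.2 and 33.6 (0.77 ± 0.10, adjusted p = 0.000171). PDP1, the phosphatase that switches pyruvate dehydrogenase on, rose by 0.58 ± 0.08 (adjusted p = 0.000208), and PDK1 and PDK3, kinases that switch it off, rose by 0.20 and 0.44.

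The glycogen and hexosamine genes split. Of 19 tested, 7 rose (36.8%) and 4 fell (21.1%), with a median of 0.09, beside 7.25% and 6.10% of all genes tested. Those that rose included glycogen synthase GYS1 (0.51), muscle glycogen phosphorylase PYGM (0.58) and PPP1R3A, which brings a phosphatase to glycogen, at 158, 185, 173 and 170 scaled TPM against 126, 109, 90.3 and 118 (0.64 ± 0.10, adjusted p = 0.000622). UAP1L1, a relative of the last enzyme of the hexosamine pathway, gave 6.79, 7.73, 7.93 and 7.81 in HPLM/B27 and 1.31, 1.55, 1.02 and 1.53 in RPMI/B27, without overlap (1.87 ± 0.11, adjusted p = 1.98e-07). Of the pathway's own members, GFPT1 (-0.18), GNPNAT1 (-0.18) and GFPT2 (0.34) did not pass. PGM3 and UAP1 fell, by -0.38 and -0.34 on the log2 scale, UAP1 just under the threshold (adjusted p = 0.0494). So did both enzymes of O-GlcNAc cycling. OGA, which takes the sugar off proteins, measured 63.9, 61.1, 60.5 and 64.2 against 113, 125, 89.4 and 112 (-0.80 ± 0.16, adjusted p = 0.00500), and OGT, which puts it on, 26.1, 31.5, 29.6 and 29.5 against 39.0, 42.7, 31.4 and 36.6, with an overlap of single wells (-0.34 ± 0.09, adjusted p = 0.0202). The OGT call was lost without HPLM/B27 replicate 1 or RPMI/B27 replicate 1 or 2 (adjusted p up to 0.0637). Counts of lower members in this list ran from 2, without HPLM/B27 replicate 1 or RPMI/B27 replicate 1 or 2, to 5.

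Many nuclear genes for mitochondrial enzymes rose and none of the 3 lists of the citrate cycle and the respiratory chain had a member called lower. In the citrate cycle and pyruvate entry 13 of 23 tested passed higher (median 0.35), in complex I 11 of 35 (0.24) and in complexes III, IV and V 21 of 38 (0.38). The summed scaled TPM of the citrate cycle list did not overlap (1999 to 2062 in HPLM/B27, 1456 to 1770 in RPMI/B27). The sums of complex I (2351 to 2670 and 1773 to 2829) and of complexes III, IV and V (7915 to 8808 and 5395 to 8428) did, with RPMI/B27 replicate 3 the highest control well. COX5A, a subunit of cytochrome c oxidase, read 121, 116, 109 and 122 scaled TPM in HPLM/B27 and 60.5, 60.3, 61.5 and 67.6 in RPMI/B27. The groups were far apart (0.89 ± 0.08, adjusted p = 1.29e-05). The catalytic ATP synthase subunit ATP5F1B gave 702, 657, 667 and 641 against 416, 399, 491 and 408 (0.64 ± 0.07, adjusted p = 4.33e-05). ATP5MC1, of the membrane ring of that enzyme, ran from 72.4 to 93.0 and from 27.9 to 51.5, and IDH3A, of isocitrate dehydrogenase, from 44.0 to 52.5 and from 20.9 to 39.0. SDHB, the iron-sulfur subunit of succinate dehydrogenase, measured 75.2, 82.0, 68.1 and 71.8 against 46.7, 46.5, 48.5 and 48.4 (0.63 ± 0.09, adjusted p = 0.000278). NDUFS1, the largest subunit of complex I, was at 182, 193, 197 and 190 against 150, 143, 149 and 146 (0.37 ± 0.04, adjusted p = 9.15e-05). NDUFA1 overlapped between media and did not pass (0.32 ± 0.12, adjusted p = 0.0983).

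These mitochondrial counts moved with the settings. On the unscaled TPM 11 of the 38 members of complexes III, IV and V passed. Complex I counts fell to 7 without HPLM/B27 replicate 4 or RPMI/B27 replicate 2. COX7B, another oxidase subunit, read 87.3, 77.4, 82.8 and 80.8 against 49.2, 51.7, 65.3 and 66.3 (0.50 ± 0.13, adjusted p = 0.0185), and its call was lost without RPMI/B27 replicate 1 or 2 (adjusted p up to 0.0580). The proteins encoded by mitochondrial DNA were not analysed here.

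Proteins of the mitochondrial ribosome followed, with 16 of 73 tested higher (21.9%), 0 lower and a median of 0.19, beside 7.25% and 6.10% of all genes tested. MRPS6 read 346, 326, 391 and 402 scaled TPM in HPLM/B27 and 198, 193, 211 and 245 in RPMI/B27 (0.79 ± 0.09, adjusted p = 8.96e-05), and MRPL34 29.2, 33.0, 28.7 and 29.2 against 14.5, 10.8, 13.9 and 18.4 (1.03 ± 0.14, adjusted p = 0.000258). Both were free of overlap. The count fell to 10 without HPLM/B27 replicate 2 or RPMI/B27 replicate 2.

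Among the regulators of this program 7 of 22 tested rose (31.8%) and 0 fell, with a median of 0.19, beside 7.25% and 6.10% of all genes tested. PPARGC1A (chr4:23792021-24472905) encodes PGC-1 alpha, the coactivator that drives mitochondrial gene expression. It gave 71.4, 79.3, 97.7 and 85.5 scaled TPM in HPLM/B27 and 32.9, 27.9, 36.4 and 31.6 in RPMI/B27. No well of one medium came near the other (1.34 ± 0.09, adjusted p = 1.37e-06). ESRRA, its nuclear receptor partner, was at 18.2, 16.6, 16.7 and 17.9 against 7.69, 6.86, 8.33 and 8.42 (1.06 ± 0.09, adjusted p = 6.33e-06). PPARA, the receptor that turns on fatty acid oxidation, read 16.0, 16.1, 17.6 and 14.6 against 11.3, 9.49, 9.41 and 9.74 (0.64 ± 0.08, adjusted p = 0.000124). MFN2, which fuses mitochondria, overlapped through RPMI/B27 replicate 3 (157, 165, 195 and 180 against 113, 102, 196 and 102) and did not pass (0.49 ± 0.17, adjusted p = 0.0626), but passed without that library (adjusted p = 0.000267).

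The creatine system and the ATP carriers rose, 7 of 10 tested, with 1 lower and a median of 0.67. CKM, muscle creatine kinase, measured 348, 429, 362 and 316 scaled TPM in HPLM/B27 and 119, 98.5, 153 and 130 in RPMI/B27 (1.54 ± 0.12, adjusted p = 2.02e-06). CKB, the brain form, gave 114, 111, 98.7 and 114 against 44.2, 40.7, 50.9 and 34.6 (1.35 ± 0.10, adjusted p = 1.94e-06). SLC6A8, which imports creatine, read 22.8, 24.9, 24.0 and 23.2 against 15.6, 13.6, 9.55 and 11.5 (0.89 ± 0.11, adjusted p = 0.000151). None of these 3 overlapped. The member that fell was GATM, the enzyme of the first step of creatine synthesis, at 16.1, 15.3, 15.3 and 19.9 against 23.3, 24.5, 24.7 and 19.8, where 1 well of each medium crossed (-0.45 ± 0.10, adjusted p = 0.00606). SLC25A4, the muscle ADP/ATP carrier, ran from 187 to 209 in HPLM/B27 and from 79.1 to 186 in RPMI/B27.

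Fatty acid genes changed less, with 5 of 27 tested higher (18.5%) and 2 lower (7.41%), beside 7.25% and 6.10% of all genes tested (median 0.14). FABP3, the heart fatty acid binding protein, read 433, 456, 383 and 422 scaled TPM against 222, 201, 261 and 292 (0.80 ± 0.10, adjusted p = 0.000204). CPT1A, the liver form of the gatekeeper of mitochondrial fatty acid entry, gave 6.97, 7.34, 7.09 and 9.11 against 5.04, 4.92, 4.52 and 4.42 (0.59 ± 0.10, adjusted p = 0.00201). SLC27A6, a heart fatty acid transporter, fell, at 18.6, 25.2, 20.9 and 14.0 against 31.7, 26.7, 39.0 and 31.0 (-0.70 ± 0.15, adjusted p = 0.00785). The other member that fell, the acyl-CoA dehydrogenase ACADL, was at 3.46, 2.49, 2.76 and 2.76 against 5.22, 7.06, 4.71 and 3.43, overlapping in 1 well (-0.63 ± 0.17, adjusted p = 0.0263), and lost its call without HPLM/B27 replicate 2, 3 or 4 or RPMI/B27 replicate 1 or 2 (adjusted p up to 0.0806). ACADVL, the very-long-chain enzyme, read 71.4, 60.1, 72.4 and 70.3 against 64.1, 59.9, 78.4 and 59.3 and did not pass (adjusted p = 0.752). Without RPMI/B27 replicate 3 the counts were 8 higher and 3 lower. LPL was under 1 TPM on average and was not tested, with 0.793 to 1.69 scaled TPM in HPLM/B27 and 0.357 to 0.977 in RPMI/B27.

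**Figure D3:**
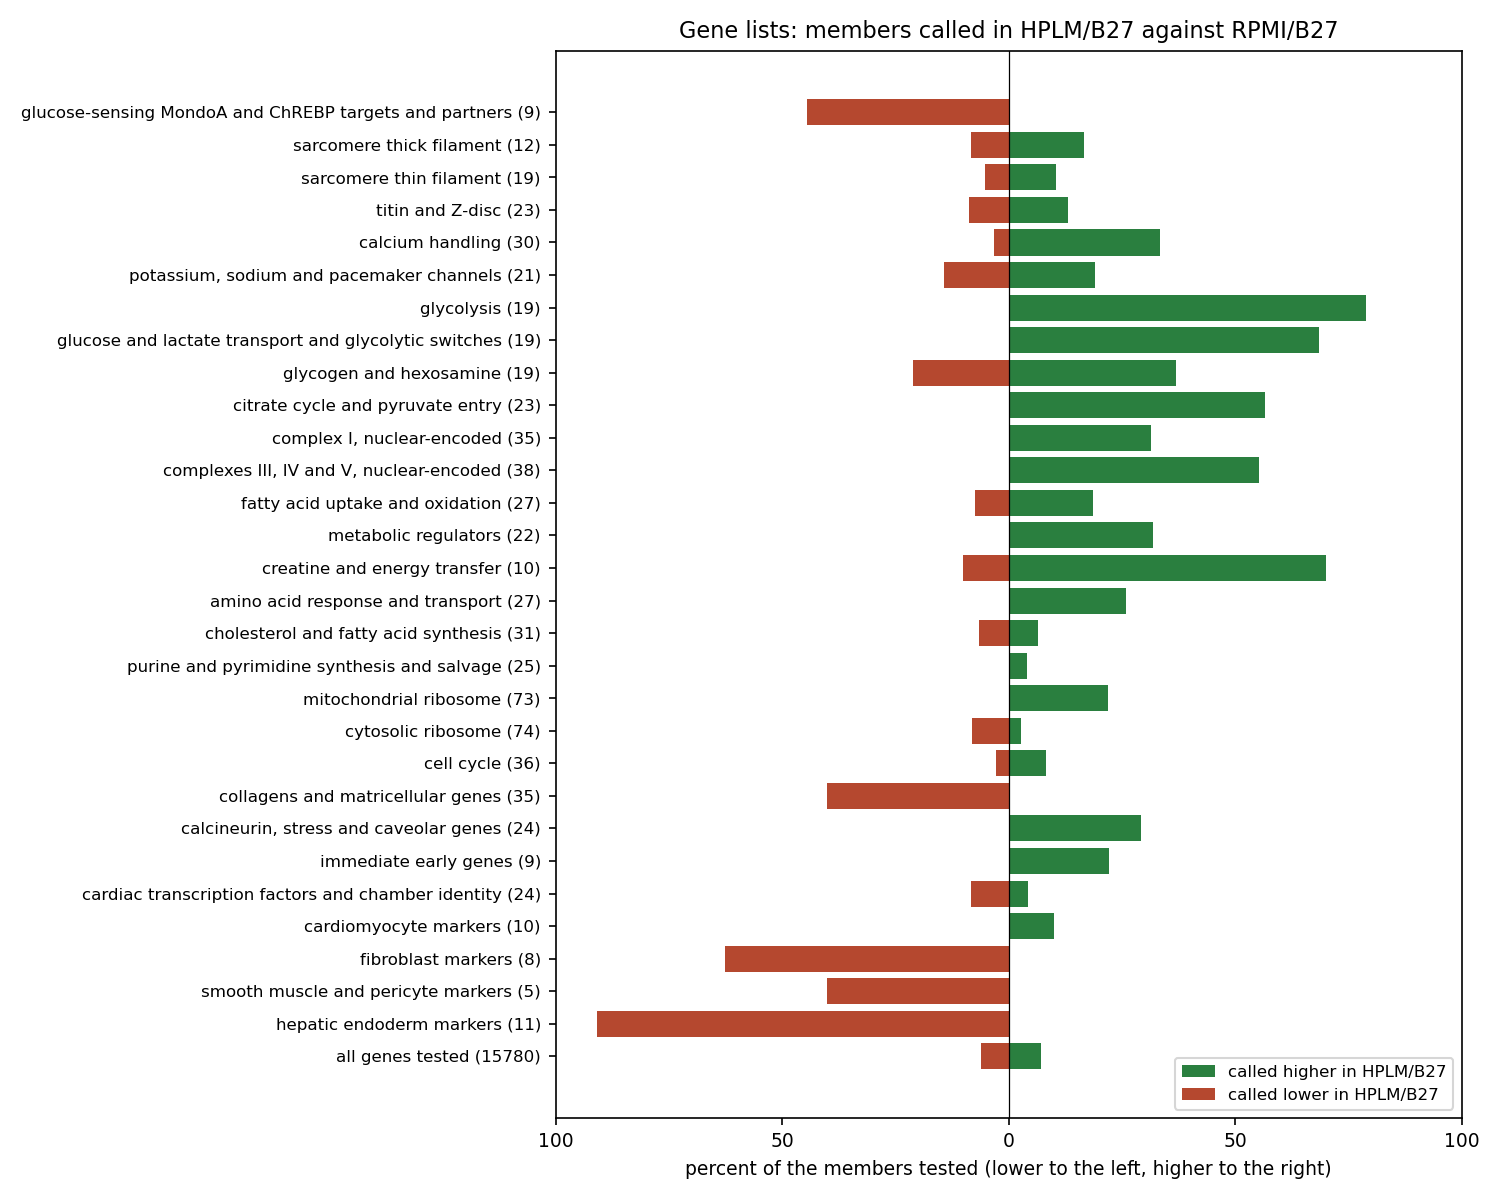
For each gene list with at least 5 tested members (the number in brackets), the bars give the percent of members called higher (green, right) or lower (red, left) in HPLM/B27, with all 15780 genes as the last bar (7.25% and 6.10%). Glycolysis (15 of 19), the creatine list (7 of 10) and the transporters (13 of 19) reach farthest to the right, and the hepatic (10 of 11) and fibroblast (5 of 8) markers farthest to the left.

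Most sarcomere genes did not pass, as held for all genes tested, of which 7.25% were higher and 6.10% lower. Of 12 tested thick filament genes 2 rose (16.7%) and 1 fell (8.33%), with a median of 0.14. Of 19 thin filament genes 2 rose (10.5%) and 1 fell (5.26%), with a median of -0.03. Of 23 genes of titin and the Z-disc 3 rose (13.0%) and 2 fell (8.70%), with a median of -0.04. Without RPMI/B27 replicate 3 the numbers higher were 3, 5 and 7, and without HPLM/B27 replicate 3 or 4 or RPMI/B27 replicate 1 or 2 the thin filament number was 1, as NEBL, nebulette (0.28 ± 0.08, adjusted p = 0.0226), lost its call (up to 0.0695). The exception in size was TNNI3 (chr19:55151767-55157732), cardiac troponin I, which measured 1394, 1415, 1376 and 1547 scaled TPM in HPLM/B27 and 451, 380, 463 and 437 in RPMI/B27. The wells within each medium were close to each other and far from those of the other (1.73 ± 0.09, adjusted p = 1.12e-07). TNNI1, the slow skeletal form it replaces, was at 623, 594, 537 and 526 against 582, 596, 621 and 604 and did not pass (-0.08 ± 0.06, adjusted p = 0.450).

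The share of TNNI3 in the sum of both troponins was 69.1, 70.4, 71.9 and 74.6% in HPLM/B27 and 43.7, 39.0, 42.7 and 42.0% in RPMI/B27. The means of 71.5 ± 2.37% and 41.8 ± 2.03% (SD, n = 4) differed by 29.7 percentage points, with all HPLM/B27 wells higher (two-sided exact permutation test, p = 0.0286, the smallest 4 against 4 can give, adjusted over 3 shares p = 0.0429). Day 16 cells had 26.7% and RPMI_glcM/B27 cells 59.1 ± 3.30%.

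For the myosin light chains, MYL2, the ventricular form, made up 13.6, 17.0, 13.2 and 13.0% of MYL2 plus MYL7 in HPLM/B27 and 12.5, 12.7, 10.9 and 11.8% in RPMI/B27. Those ranges did not overlap either, at means of 14.2 ± 1.89% and 12.0 ± 0.83% (exact permutation test, p = 0.0286, adjusted p = 0.0429), although the gap between the closest wells was small and MYL2 itself did not pass in the gene-wise fit (0.33 ± 0.14, adjusted p = 0.138, or 0.0469 without HPLM/B27 replicate 3). The share's call was lost without HPLM/B27 replicate 2 or any RPMI/B27 library (exact permutation p of 0.0571 to 0.0857), and the difference fell from 2.24 to 1.30 percentage points without HPLM/B27 replicate 2. MYL7, the atrial form, overlapped (0.05 ± 0.15, adjusted p = 0.859). For the myosin heavy chains, MYH7, the beta form of slow and ventricular muscle, was 81.5, 87.8, 79.3 and 79.3% of MYH7 plus MYH6 in HPLM/B27 and 80.0, 80.0, 64.9 and 79.1% in RPMI/B27. The ranges overlapped and the difference did not pass (exact permutation test, p = 0.229, adjusted p = 0.229). MYH7 and MYH6 are near-identical neighbors on chromosome 14, and how the authors' counting split reads between them is not given in the sources used here. Neither passed alone (MYH7 0.36 ± 0.13, adjusted p = 0.0779, or 0.0288 without RPMI/B27 replicate 4, and MYH6 -0.15 ± 0.27, adjusted p = 0.767).

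**Figure D4:**
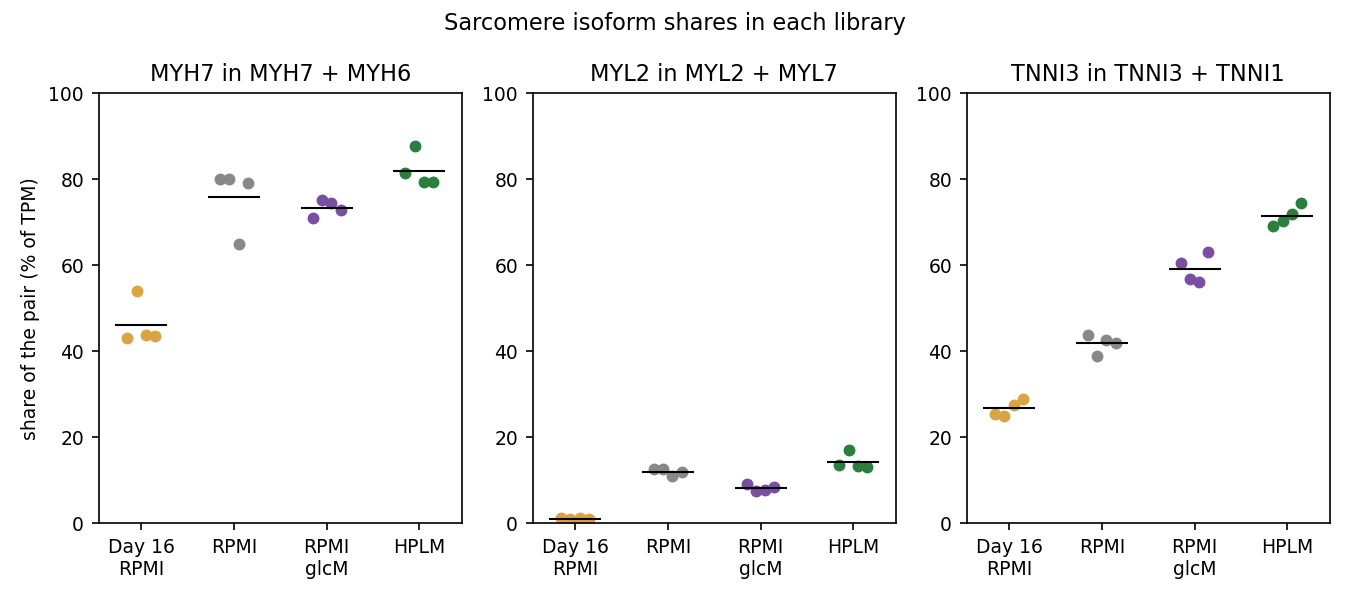
Share of the first-named isoform in the summed TPM of the pair, in percent from 0 to 100, with a point per library and a bar at the mean of 4, for Day 16 RPMI/B27 and the 3 Day 30 media. TNNI3 steps from 41.8% in RPMI to 71.5% in HPLM, while MYL2 is at 12.0% and 14.2% and the MYH7 ranges overlap.

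Other sarcomere and Z-disc genes that passed changed less than TNNI3. MYH7B, a slow myosin of heart and muscle, rose from 20.4, 19.2, 29.2 and 31.1 scaled TPM in RPMI/B27 to 43.7, 41.8, 47.9 and 46.7 in HPLM/B27 (0.85 ± 0.16, adjusted p = 0.00262). CSRP3, the muscle LIM protein of the Z-disc, read 1401, 1115, 1398 and 1486 against 747, 663, 1091 and 912 (0.68 ± 0.15, adjusted p = 0.00911), and the intermediate filament DES, desmin, 18.1, 19.0, 14.8 and 23.3 against 8.02, 8.24, 13.9 and 9.63 (0.87 ± 0.18, adjusted p = 0.00570). In both, RPMI/B27 replicate 3 was the highest control well and still lay below the lowest HPLM/B27 well. SYNPO2, an actin-binding Z-disc protein, fell, with 11.9, 10.4, 12.5 and 14.2 against 20.1, 19.2, 22.1 and 19.6 (-0.69 ± 0.08, adjusted p = 0.000113), and so did LDB3, which ties actinin to the Z-disc (-0.35 ± 0.08, adjusted p = 0.00635). NRAP, which helps assemble young myofibrils, was at 6.39, 5.93, 6.72 and 7.51 against 9.43, 9.06, 11.2 and 9.16 (-0.49 ± 0.11, adjusted p = 0.0102). MYLK3, the cardiac myosin light chain kinase, fell by 0.49 on the log2 scale (adjusted p = 0.0169), a call lost without HPLM/B27 replicate 4 (0.0533).

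In the calcium-handling list 10 of 30 tested rose (33.3%) and 1 fell (3.33%), beside 7.25% and 6.10% of all genes tested. The median was -0.01, the same as over all genes. CA8 (chr8:60185412-60281400), a carbonic anhydrase relative without enzyme activity that restrains the inositol trisphosphate receptor, gave 7.52, 7.60, 8.73 and 7.19 scaled TPM in HPLM/B27 and 0.934, 0.689, 0.661 and 1.35 in RPMI/B27 (2.21 ± 0.12). It averaged under 1 in RPMI/B27 and passed the filter of 1 TPM through HPLM/B27, so the difference is given as a description. GEM, a small GTPase that inhibits L-type channels, read 34.9, 28.5, 42.0 and 43.5 against 11.0, 8.99, 13.5 and 11.8 (1.63 ± 0.14, adjusted p = 7.35e-06). Both were without overlap, which for GEM follows from the choice of the leading genes and for CA8 is part of the description. CA8 is among the 10 members counted as higher. RRAD, another channel inhibitor of the family of GEM, was at 141, 144, 138 and 141 against 74.7, 53.9, 63.4 and 94.9, higher in all 4 wells but just short of the threshold (1.00 ± 0.32, adjusted p = 0.0501, or 0.0478 without RPMI/B27 replicate 4).

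Among the other members, PLN, phospholamban, the brake on the calcium pump, measured 3724, 4086, 4650 and 4015 against 3235, 3071, 2259 and 2930 (0.53 ± 0.11, adjusted p = 0.00483), and the pump ATP2A2 426, 428, 498 and 464 against 366, 341, 403 and 318 (0.35 ± 0.07, adjusted p = 0.00632). CASQ2, the calcium store protein of heart, read 30.9, 33.8, 25.2 and 46.1 against 21.1, 18.8, 18.9 and 17.6 (0.77 ± 0.19, adjusted p = 0.0144). SLC8A1, the sodium-calcium exchanger, gave 900, 818, 1020 and 1077 against 712, 664, 822 and 693, with 1 HPLM/B27 well just under the highest control well (0.40 ± 0.09, adjusted p = 0.00911). RYR2, the release channel, lay at 197, 211, 217 and 197 against 236, 225, 219 and 220, lower in each HPLM/B27 well without passing (-0.13 ± 0.06, adjusted p = 0.139). The member that fell was CACNB2, a calcium channel subunit (-0.30 ± 0.08, adjusted p = 0.0281), whose call was lost without HPLM/B27 replicate 1, 2 or 4 or RPMI/B27 replicate 1, 2 or 4 (adjusted p up to 0.0857). S100A4, a calcium-binding protein of motile cells, ran from 25.7 to 39.0 against 11.9 to 29.4, overlapping and not past the threshold (0.77 ± 0.29, adjusted p = 0.0940, or 0.0376 without RPMI/B27 replicate 1). On the unscaled TPM 2 members of the list passed higher.

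Ion channels and pumps went both ways, with 4 of 21 tested higher (19.0%), HCN2 among them, and 3 lower (14.3%). The median was 0.06, and of all genes tested 7.25% were higher and 6.10% lower. ATP1B1, the beta subunit of the sodium pump, read 178, 171, 196 and 179 against 132, 126, 113 and 151 (0.47 ± 0.08, adjusted p = 0.00201). HCN2, a pacemaker channel, was at 1.72, 3.09, 2.52 and 3.28 scaled TPM in HPLM/B27 and under 1 in RPMI/B27 (0.763, 0.879, 0.984 and 0.745). It passed the filter of 1 TPM only through the group where it is high, so its difference of 0.97 ± 0.18 is given as a description. KCNIP2, which shapes the transient outward current, fell, at 47.9, 38.5, 45.1 and 33.9 against 66.6, 77.1, 63.1 and 61.8 (-0.69 ± 0.15, adjusted p = 0.00839). The other members that fell, FXYD1 (-0.71) and KCNJ5 (-0.31), lost their calls on leaving out any of several wells, with 1 lower member without HPLM/B27 replicate 2 or 3 or RPMI/B27 replicate 4. KCNJ2, of the inward rectifier current, was too low to test, at 0.612, 0.900, 1.53 and 0.964 scaled TPM in HPLM/B27 and 0.396, 0.176, 0.164 and 0.0946 in RPMI/B27.

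Of the calcineurin, stress and caveolar genes 7 of 24 tested rose (29.2%), NPR3 among them, and 0 fell (median 0.07). Of all genes tested 7.25% were higher and 6.10% lower. RCAN1 (chr21:34516442-34615113), an inhibitor of calcineurin that calcineurin itself induces, read 58.8, 59.5, 82.2 and 97.5 scaled TPM in HPLM/B27 and 26.3, 20.3, 38.4 and 25.0 in RPMI/B27, without overlap (1.41 ± 0.18, adjusted p = 0.000158). NPR3, the clearance receptor for natriuretic peptides, was at 2.33, 1.84, 4.25 and 3.16 against 0.198, 0.245, 0.126 and 0.334 (1.63 ± 0.22). It passed the filter of 1 TPM only through the HPLM/B27 libraries, where it is high, so the difference is given as a description. GPX3, a secreted glutathione peroxidase that contains selenium, gave 74.4, 52.7, 58.1 and 61.6 against 33.0, 26.2, 34.7 and 27.1 (1.00 ± 0.12, adjusted p = 0.000119). GPX1 and GPX4, of the same selenium family, passed with smaller rises of 0.28 and 0.35. The natriuretic peptide genes NPPA and NPPB, markers of wall stress and of young myocardium, overlapped widely, with NPPB at 156 to 433 in HPLM/B27 and 135 to 882 in RPMI/B27.

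Of the transcription factors of the heart 1 of 24 tested was higher (4.17%) and 2 lower (8.33%), near the 7.25% and 6.10% of all genes tested. The median was -0.06, and the counts were 3 and 3 without RPMI/B27 replicate 3 and 2 and 1 without RPMI/B27 replicate 1. TBX18 (chr6:84732496-84764598), which marks the epicardium and the sinus node, had the largest difference of the list, at 7.31, 7.26, 5.76 and 7.40 scaled TPM against 19.6, 21.7, 13.3 and 20.6. Its groups stood apart (-1.30 ± 0.12, adjusted p = 1.54e-05). ISL1, a progenitor factor, was lower in every HPLM/B27 well (-0.37 ± 0.11, adjusted p = 0.0325), a call lost in 6 of the 8 fits that left out 1 library, those without HPLM/B27 replicate 2 or 3 or any RPMI/B27 library (adjusted p up to 0.0999). TEAD1, of the Hippo pathway, rose by 0.31 ± 0.07 (adjusted p = 0.0104).

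Collagens and matricellular genes fell, 14 of 35 tested, with 0 higher and a median of -0.31 (14 lower and 3 higher without RPMI/B27 replicate 3). COL1A2, a chain of type I collagen, read 20.5, 19.7, 25.6 and 19.4 scaled TPM in HPLM/B27 and 38.6, 36.6, 33.0 and 44.1 in RPMI/B27 (-0.81 ± 0.13, adjusted p = 0.000906). COL5A2, of type V collagen, gave 20.7, 14.4, 17.2 and 22.4 against 30.5, 31.5, 40.8 and 37.0 (-0.88 ± 0.12, adjusted p = 0.000284), and SPARC, a collagen-binding matrix protein, 51.9, 45.5, 47.6 and 47.5 against 87.5, 88.5, 75.4 and 83.5 (-0.79 ± 0.09, adjusted p = 5.01e-05). None of the 3 overlapped. POSTN, of activated fibroblasts and valve cells, ran from 24.1 to 34.6 and from 35.1 to 65.6. On the unscaled TPM 3 members passed lower, and without the mitochondrial and ribosomal RNAs and RN7SK 8.

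Markers of fibroblasts moved with the matrix genes. Of 12 listed 8 were tested, and 5 of these were lower, 3 of them collagen chains or POSTN that both lists hold (median -0.62). PDGFRA, a receptor of stromal cells, was at 24.2, 29.4, 24.9 and 25.5 scaled TPM against 45.0, 47.0, 32.6 and 43.3 (-0.66 ± 0.14, adjusted p = 0.00723). The summed level of the 12 ran from 139 to 200 in HPLM/B27 and from 195 to 269 in RPMI/B27, whereas FAP was at 0 in HPLM/B27 and at most 0.0837 in RPMI/B27, and DCN, TCF21 and THY1 were under 1.5 in all 8. Smooth muscle markers summed to 303 to 571 and 296 to 1216, with RPMI/B27 replicate 3 at the top, and MYH11, the defining one, was at 0 throughout. Of the 5 tested, RGS5 (-0.46) and CSPG4 (-0.51) fell, and CSPG4 lost its call without HPLM/B27 replicate 1, 2 or 3 or RPMI/B27 replicate 2 or 3 (adjusted p up to 0.109). Endothelial markers summed to 21.7 to 35.3 and 18.1 to 28.7, with PECAM1 and CDH5 under 1, and 1 was tested and did not pass, though it did without HPLM/B27 replicate 4 or RPMI/B27 replicate 1, among other settings. Cardiomyocyte markers summed to 13584 to 17837 and 10057 to 23000, and 1 of 10, MYBPC3, passed (0.29 ± 0.06, adjusted p = 0.00836), or 3 without RPMI/B27 replicate 3. The part of stromal cells in the lower matrix genes was not tested.

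Liver and yolk sac endoderm genes fell the most as a list, with 10 of 11 tested lower, FGA among them, and a median of -1.31. The count was 8 or 9 in the fits that left out 1 library. ALB (chr4:73404287-73421482), albumin, was at 22.3, 77.2, 61.8 and 48.8 scaled TPM in HPLM/B27 and 271, 268, 229 and 227 in RPMI/B27. Every HPLM/B27 well was below every RPMI/B27 well (-2.35 ± 0.37, adjusted p = 0.000837), as the choice of the leading genes required. AFP, the fetal counterpart of albumin, ran from 30.9 to 84.7 and from 139 to 151, and APOA2, a lipoprotein of liver, was at 2.98, 18.6, 11.7 and 7.50 against 25.0, 25.0, 35.9 and 34.4 (-1.68 ± 0.42, adjusted p = 0.0159). FGA, fibrinogen alpha, gave 0.837, 1.45, 0.782 and 0.694 against 3.61, 5.34, 6.74 and 5.50 (-1.69 ± 0.23). It passed the filter through RPMI/B27, so the difference is given as a description. The beta chain FGB fell by 1.45 on the log2 scale (adjusted p = 0.00996). The summed level of the 15 listed genes ran from 81.9 to 213 in HPLM/B27 and from 460 to 505 in RPMI/B27. HNF4A, a factor that defines hepatic endoderm, was at 0.0497 to 0.343 and 0.403 to 0.776, and FOXA2 and RBP4 were under 1 in all 8 libraries. At Day 16 the sum ran from 370 to 731, while ALB alone averaged 18.3 ± 6.46 (SD, n = 4).

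The leading genes held several that no list covered. SULT1E1, estrogen sulfotransferase, was at 8.09, 6.34, 8.07 and 7.26 scaled TPM against 41.1, 50.9, 31.0 and 31.4 (-2.21 ± 0.17, adjusted p = 2.44e-06). NMRK2, the muscle kinase that makes NAD from nicotinamide riboside, rose to 13.4, 11.8, 16.9 and 11.0 from 2.29, 1.94, 2.17 and 4.24 (1.99 ± 0.24, adjusted p = 0.000119). NEFL, neurofilament light chain, read 8.41, 10.8, 9.36 and 12.0 against 2.10, 2.14, 1.15 and 3.38 (1.83 ± 0.18, adjusted p = 1.80e-05), and SLC35F1, a solute carrier relative, 18.7, 19.4, 20.0 and 17.5 against 5.99, 4.42, 5.05 and 5.00 (1.71 ± 0.11, adjusted p = 3.76e-07). That the groups of these 4 do not overlap follows from the choice of the leading genes. TXNIP, ARRDC4, PFKFB2, TNNI3, GEM and ALB, described above, met the same choice, so their lack of overlap is also a description. C11orf21 (chr11:2295628-2303140) and the tetraspanin TSPAN32 (chr11:2302013-2318204) rose by 2.56 ± 0.34 and 1.62 ± 0.21 (adjusted p = 0.000240 and 0.000162), but their annotations overlap and the strand setting of the counting is not given in the sources used here, so their reads cannot be fully told apart. The uncharacterized LOC105374527 rose by 1.61 ± 0.12 (adjusted p = 1.84e-06), and the noncoding KC6 and LOC105373878 fell by 1.61 and 1.50 on the log2 scale (adjusted p = 0.000857 and 0.000906). The small nucleolar RNAs SNORD13D and SNORD50B, also among the leading falls, rested on 0 to 8 reads a library.

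Set beside RPMI_glcM/B27, the total difference of the named genes divided in several ways. The comparison of RPMI_glcM/B27 with RPMI/B27 called 1964 genes (12.4%), and that of HPLM/B27 with RPMI_glcM/B27 242 (1.53%), 147 higher and 95 lower. Both share libraries with the comparison described here, so their values are set side by side only. TXNIP differed by -4.59 ± 0.33 between RPMI_glcM/B27 and RPMI/B27 and by 0.00 ± 0.33 between HPLM/B27 and RPMI_glcM/B27. CKM (1.31 ± 0.12 and 0.23 ± 0.12) and LDHA (0.86 ± 0.08 and -0.10 ± 0.08) had most of their difference in the first step too. Glycolysis had 13 members called higher in the first and 1 in the second, complexes III, IV and V 14 and 0.

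Another set changed in both steps. TNNI3 differed by 1.15 ± 0.09 and 0.58 ± 0.09 (adjusted p = 1.23e-05 and 0.00609), GEM by 0.77 ± 0.14 and 0.85 ± 0.14 (0.00259 and 0.00621), SLC35F1 by 0.86 ± 0.11 in the first and 0.85 ± 0.11 in the second (0.000183 and 0.00118), and TBX18 by -0.49 ± 0.12 and -0.82 ± 0.12 (0.0190 and 0.00375). CA8, which passed the filter through HPLM/B27, differed by 1.36 ± 0.12 and 0.85 ± 0.12, given as a description. A further set passed in the second step and not in the first, a contrast that was not itself tested: RCAN1 (0.12 ± 0.18, then 1.29 ± 0.18, adjusted p = 0.722 and 0.00191), GPX3 (0.15 ± 0.12 and 0.86 ± 0.12, 0.488 and 0.00225), CASQ2 (-0.16 ± 0.19 and 0.93 ± 0.19, 0.650 and 0.0221), DES (-0.23 ± 0.18 and 1.10 ± 0.18, 0.455 and 0.00631), ENO3 (0.06 ± 0.07 and 0.64 ± 0.07, 0.647 and 0.000758) and MRPS6 (0.10 ± 0.09 and 0.69 ± 0.09, 0.527 and 0.00164). The calcium-handling list had 4 members higher and 3 lower in the first step and 5 higher and 1 lower in the second.

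In a last set the steps ran against each other. TNC, a matrix protein of remodeling tissue, fell by 1.14 on the log2 scale in RPMI_glcM/B27 and was 1.30 ± 0.16 higher in HPLM/B27 than there (adjusted p = 0.000369 and 0.000850), and it did not pass between HPLM/B27 and RPMI/B27 (4.69, 3.46, 4.29 and 5.47 scaled TPM against 4.44, 4.13, 2.93 and 4.14, adjusted p = 0.566). SPP1, osteopontin, differed by -1.74 ± 0.15 and 1.39 ± 0.15 and ended at -0.34 ± 0.15 (adjusted p = 0.148). MYL2 went by -0.50 ± 0.14 and 0.83 ± 0.14 (adjusted p = 0.0320 and 0.00723). CAV1, which shapes caveolae, went by -0.60 ± 0.18 and 1.13 ± 0.18 and reached 0.53 ± 0.18 (adjusted p = 0.0642, or 0.0110 without RPMI/B27 replicate 3), and CAV2 by -0.53 ± 0.12 and 1.04 ± 0.12, which passed at 0.51 ± 0.12 (adjusted p = 0.0116). PCDH20, a protocadherin, ran the other way, by 0.66 ± 0.12 and -1.18 ± 0.12, and fell between HPLM/B27 and RPMI/B27 (38.2, 40.6, 35.2 and 32.7 against 60.6, 57.2, 44.5 and 51.1, -0.52 ± 0.12, adjusted p = 0.0106). For NELL1, a secreted protein of bone and cartilage, the first step did not pass (0.49 ± 0.17, adjusted p = 0.0792), the second did (-1.31 ± 0.17, 0.00155), and HPLM/B27 was below RPMI/B27 in all wells (-0.81 ± 0.17, adjusted p = 0.00647). The collagen list had 16 members lower in the first step and 4 higher in the second.

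**Figure D5:**
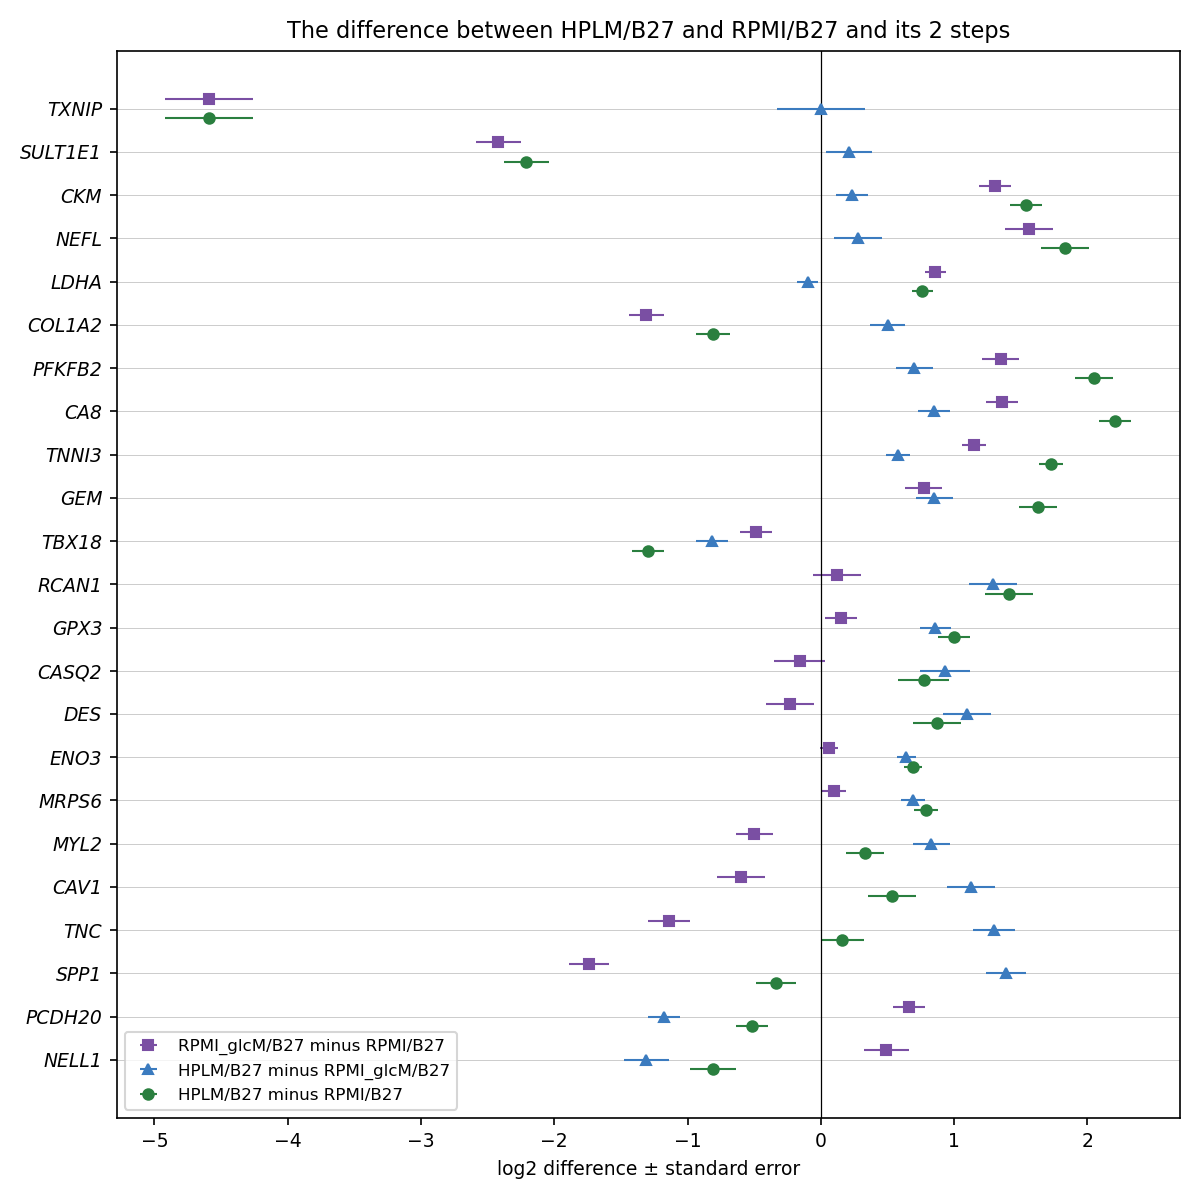
Log2 differences ± SE of 23 genes for RPMI_glcM/B27 minus RPMI/B27 (squares), HPLM/B27 minus RPMI_glcM/B27 (triangles) and HPLM/B27 minus RPMI/B27 (circles). TXNIP at the top has its whole difference in the first step, RCAN1 in the middle has 1.29 of 1.41 in the second, and TNC, SPP1, PCDH20 and NELL1 at the bottom have steps of opposite sign.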

How the data were processed

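RNA was sequenced from 16 wells of hPSC-CMs, 4 in each of 4 groups taken from the labels. Per the study's methods and the submitters' processing notes, libraries were made with a stranded total RNA kit, aligned to hg38 with decoy sequences by STAR 2.5.3a and counted per gene with featureCounts 2.0.3, with further work in R 4.1.3. The deposited values are TPM per gene and library. The annotation, gene lengths, strand setting and TPM tool are not given in the sources used here. The TPM steps gave whole reads for all 31047 genes above 0 (tolerance 0.02 reads, largest deviation 0.000822).

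TPM values were divided by median-of-ratios factors and a pseudocount of 1 was added on the log2 scale, which understates changes of low genes. limma 3.58.1 (R 4.3.3, trended empirical Bayes, Benjamini-Hochberg adjustment) was fitted to all 16 libraries, so the 4 groups share 1 estimate of spread, for the 15780 genes that averaged 1 TPM or more in the 8 libraries compared. Genes were called at an adjusted p of 0.05. limma was used because the deposited TPM are not counts, and limma-voom on the recovered reads was run as an alternative. On simulated data with the sample sizes of this comparison, 86 of 100 genes changed by a log2 fold of 1 and 11 of 100 changed by 0.5 were recovered, with 4 false calls. No other gene of the 15780 was changed there and all had the same dispersion, whereas 2106 genes passed in the data. The adjustment was therefore stricter in the simulation, and its recovery does not measure the power of this comparison. Isoform shares were compared with two-sided exact permutation tests. Depth was 9655892 to 16183655 reads in the libraries compared, and 47 of the called genes had a mean under 10 reads.

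The members and the 32 gene lists were chosen with earlier results of these data known, so a list's count is a description. Genes were named as the 10 largest changes in each direction among called genes without overlap and with a mean of at least 5 scaled TPM, up to 3 called members per list and direction by adjusted p, and 35 genes fixed by name. KLF10, HK2, ENO2, GAPDH, SLC2A1, SLC2A4, SLC2A3, SLC2A12, PDK1, PDK3, GYS1, PYGM, UAP1, ATP5MC1, IDH3A, SLC25A4, AFP, POSTN, GPX1, GPX4, NPPA, NPPB, the marker genes given by level and the list members named in the closing section were added after their values were seen. MLXIP, MLX, TKFC, HBP1, BHLHE40, GFPT1, GNPNAT1 and GFPT2 were added in the same way. Coordinates and promoter windows came from RefSeq on GRCh38.p14. No 2 libraries of a group agreed within sampling noise (chi-square per degree of freedom 2.88 to 43.3), so none was counted as a duplicate. Alternatives were the scaling, pseudocount, filter, libraries fitted, a replicate block, limma-voom on recovered reads and leaving out each library. RNR1 as a covariate was added after the data were seen. Some genes that the rule names are not reported here.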

Additional observations from a re-analysis of the deposited data

Results flagged for a closer look

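In 274 groups of 4 libraries tested, 19 had 1 library far from the other 3 by Dixon's 95% critical value for the gap over the range, which chance passes in about 1 of 20 groups. RPMI/B27 replicate 3 was that library in 9 of them: FGB (16.1 scaled TPM against 8.63 to 9.27), NRAP (11.2 against 9.06 to 9.43), MRPS5 (64.2 against 52.4 to 53.6), MFN2 (196 against 102 to 113) and CAV2 (57.5 against 36.7 to 40.0) were high there, and PGM3 (15.6 against 18.2 to 18.4), SREBF1 (4.98 against 8.37 to 8.91), COL1A1 (32.7 against 45.0 to 47.3) and the MYH7 share (64.9% against 79.1 to 80.0%) were low. RPMI/B27 replicate 4 was high in NMRK2 (4.24 against 1.94 to 2.29), LOC105374527 (2.68 against 1.74 to 1.87) and COX5A (67.6 against 60.3 to 61.5), and RPMI/B27 replicate 1 was low in LOC105373878 (9.61 against 11.1 to 11.2).

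Among the HPLM/B27 libraries, replicate 2 was high in KC6 (4.42 against 1.84 to 2.13), MRPL34 (33.0 against 28.7 to 29.2) and the MYL2 share (17.0% against 13.0 to 13.6%). Replicate 1 was high in UCK1 (16.2 against 11.1 to 11.8), replicate 4 low in PGM1 (79.3 against 86.0 to 87.1) and replicate 3 low in TBX18 (5.76 against 7.26 to 7.40).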

How the results depend on the processing

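The counts of called genes moved most with the scaling and the libraries fitted. Against 1144 higher and 962 lower, the unscaled TPM gave 244 and 149, TPM without mitochondrial and ribosomal RNA and RN7SK gave 807 and 409, and a fit of only the 8 libraries compared gave 692 and 502. The smaller number of libraries is part of the construction of the last, and for the others the cause was not tested. Counts within 1.5 times came from a pseudocount of 0.1 (1116 and 937), all genes above 0 (976 and 804), a mean of at least 5 TPM (1016 and 773), RNR1 as a covariate, added after seeing the data (1085 and 958), and limma-voom on recovered reads (1288 and 1139). Leaving out each library in turn gave 840 to 1368 higher and 664 to 1179 lower, with the highest counts without RPMI/B27 replicate 3. Of 118 called genes named by the rule, 96 kept the call without any 1 library, 60 kept it on the unscaled TPM and 0 changed direction. On the unscaled TPM the members passing higher fell to 6 in transport and switches, 3 in the citrate cycle, 3 in complex I, 3 among the regulators, 6 in the mitochondrial ribosome and 1 in glycogen and hexosamine, the lower fibroblast markers to 1, and the hepatic list had 9 lower.

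MYH6, not called, changed sign with RNR1 as a covariate (0.06), without HPLM/B27 replicate 2 (0.06) and without RPMI/B27 replicate 3 (0.15), and MYL7, not called, without RPMI/B27 replicate 2 (-0.05). Over the fits without 1 library MYH6 ran from -0.36 to 0.15 and MYL7 from -0.05 to 0.14. Leaving out 1 library moved the difference in share between 1.30 and 2.64 percentage points for MYL2, between 28.7 and 30.5 for TNNI3 and between 2.26 and 7.29 for MYH7. For the MYL2 share the exact permutation p was 0.0571 without RPMI/B27 replicate 1 or 2 and 0.0857 without HPLM/B27 replicate 2 or RPMI/B27 replicate 3 or 4. Replicate numbers in the 2 media did not pair the wells (correlations of deviations -0.181, 0.247, -0.115 and 0.108), and a fit with the replicate block called 1170 higher and 1011 lower. In the simulation, where far fewer genes changed than passed here, 11 of 100 genes at a log2 fold of 0.5 were recovered. The effect of depth was not tested.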

Other observations

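Of 27 tested genes of amino acid response and transport, 7 were higher in HPLM/B27 (25.9%) and 0 lower (median 0.24), beside 7.25% and 6.10% of all genes tested. Among the higher were SHMT2, which moves one-carbon units from serine in mitochondria, at 16.3, 15.6, 15.7 and 14.2 scaled TPM against 8.12, 6.47, 9.47 and 8.37 (0.86 ± 0.15, adjusted p = 0.00177), SLC38A2, a neutral amino acid transporter (0.54 ± 0.09, adjusted p = 0.00111), and the tRNA exporter XPOT (0.57 ± 0.09, adjusted p = 0.000771). Of 31 genes of cholesterol and fatty acid synthesis 2 were higher and 2 lower, 6.45% each way, near the 7.25% and 6.10% of all genes tested. The median was -0.03, and 4 were lower without HPLM/B27 replicate 2. SCD, which makes monounsaturated fatty acids, read 95.7, 132, 110 and 98.5 against 65.5, 53.8, 75.3 and 59.2 (0.77 ± 0.12, adjusted p = 0.000848) and SREBF1, a lipogenic factor, 14.7, 14.8, 18.6 and 13.4 against 8.91, 8.78, 4.98 and 8.37 (0.92 ± 0.15, adjusted p = 0.00111), whereas the sterol genes SC5D (-0.46 ± 0.08, adjusted p = 0.00173) and STARD4 (-0.42 ± 0.09, adjusted p = 0.00567) fell. Purine and pyrimidine genes had 1 of 25 higher (4.00%) and 0 lower, beside 7.25% and 6.10% of all genes tested. The higher member was UCK1 (adjusted p = 0.0425), which kept its call in 1 of the 8 fits without 1 library, that without RPMI/B27 replicate 3 (adjusted p = 0.0203, up to 0.119 in the others). The lower count was 1 without RPMI/B27 replicate 3 or 4.

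Proteins of the cytosolic ribosome had 6 of 74 tested lower (8.11%) and 2 higher (2.70%), beside 6.10% and 7.25% of all genes tested (median -0.19). RPS4X read 442, 436, 474 and 454 against 530, 553, 504 and 570 (-0.26 ± 0.06, adjusted p = 0.00838). The lower count ran from 1, without HPLM/B27 replicate 4, over 2, without HPLM/B27 replicate 2, to 10, without RPMI/B27 replicate 3, and the higher count, RPS28 and RPL39, was 0 without HPLM/B27 replicate 1, 2 or 3 or RPMI/B27 replicate 3 or 4. Many of these genes have near-identical pseudogene copies, which makes their levels uncertain. Of 36 cell cycle genes 3 were higher (8.33%) and 1, CDK2, lower (2.78%), beside the same shares of all genes. The CDK2 call was lost without HPLM/B27 replicate 2, 3 or 4 or RPMI/B27 replicate 3 or 4 (adjusted p up to 0.126). MCM4, of the replication helicase, was at 46.4, 41.8, 40.2 and 36.4 against 29.8, 30.5, 30.3 and 27.5 (0.46 ± 0.10, adjusted p = 0.00514). Of 9 immediate early genes FOS (0.99 ± 0.27, adjusted p = 0.0258) and KLF2 (0.65 ± 0.19) were higher (22.2%, beside 7.25% of all genes tested). FOS was not called without HPLM/B27 replicate 2 or 3 or RPMI/B27 replicate 2 (adjusted p up to 0.0796). KLF2 averaged 0.911 scaled TPM in RPMI/B27 and passed the filter of 1 TPM through HPLM/B27, so its difference is given as a description. Of the fits without 1 library, KLF2 kept its call only in those without HPLM/B27 replicate 4 or RPMI/B27 replicate 2 (adjusted p up to 0.103 in the others). Neural and pluripotent markers had 2 tested members, neither called.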
